A study of Mus musculus with 12 samples.

Results

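The eIF4F complex and its regulators were followed through 10 genes of the 22462 in the ribosome profiling count table, matched by symbol: Eif4e, Eif4e2, Eif4g1, Eif4g2, Eif4g3, Eif4a1, Eif4a2, Eif4b, Eif4ebp1 and Eif4ebp2. The table covered mouse embryonic stem cells (ESCs), grown in Knockout DMEM with fetal bovine serum, LIF and the inhibitors PD0325901 and CHIR99021, and epiblast-like cells (EpiLCs), collected about 56 hours after LIF and both inhibitors were taken away. No genotype, knockout or further treatment was labelled for either cell type. For the differentiation the study lists an ESC line that carries mCherry and GFP reporters of microRNA genes. For each cell type 3 libraries of ribosome protected fragments (RPF) and 3 of total RNA were made with a ribosome profiling kit, giving 12 libraries in 4 groups. The study's text calls the replicates biological, but the sources used here do not say whether they were separate cultures, so p-values measure only the spread between these libraries, which may be technical.

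The cap-binding protein eIF4E recognises the 5′ cap of an mRNA, the scaffold eIF4G joins it to the small ribosomal subunit through eIF3, and the helicase eIF4A, helped by eIF4B, unwinds the leader of the mRNA. The 4E-BPs hold eIF4E away from eIF4G until the kinase mTORC1 phosphorylates them. Several of these proteins exist as related genes whose products differ: eIF4E2 binds caps but not eIF4G, and eIF4G2 (DAP5) lacks the eIF4E-binding region of the other scaffolds.

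Total RNA libraries held between 11491044 and 13477432 counted reads in ESCs and between 6188838 and 14655015 in EpiLCs, and RPF libraries between 4777262 and 11359352 in ESCs and between 2681439 and 5413144 in EpiLCs. Levels are given as TMM-scaled CPM (reads of a gene relative to the library total), and, where genes are compared with one another, as RPKM (CPM per kilobase of counted coding sequence). Cell identity followed the labels in both assays: all 4 naive markers fell and all 4 primed epiblast markers rose in EpiLCs. All 3 markers of pluripotency in both states fell in both assays, their summed total RNA level being 2154 to 2372 CPM in ESCs and 1082 to 1242 CPM in EpiLCs. Of 5 fibroblast markers Postn was at 0 in total RNA, and the summed level of all 5 was 1.94 to 2.23 CPM in ESC and 8.82 to 11.8 CPM in EpiLC total RNA, the 2 that reached the filter rising in both assays. The summed total RNA level of 5 primitive endoderm markers was 3.69 to 4.81 CPM in ESCs and 4.81 to 5.50 CPM in EpiLCs, that of 3 mesoderm markers 5.83 to 7.22 and 3.78 to 7.34 CPM, and that of 3 neural markers 81.7 to 94.9 and 60.9 to 71.4 CPM. Of the neural markers 1 rose and 1 fell in total RNA, and 2 rose and 1 fell in RPF. The part of such cells in the values below was not tested, and in bulk libraries fewer cells of a type cannot be told apart from less RNA per cell.

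All 10 genes passed the filter on low counts, and most of their changes between the cell types were modest, the largest being that of Eif4g3. In total RNA 4 genes were higher in EpiLCs (Eif4g3, Eif4g2, Eif4g1 and Eif4b), beside 34.6% of all 11750 genes tested, and 4 were lower (Eif4e2, Eif4ebp1, Eif4a1 and Eif4a2), beside 30.7%. Under 7 of the other settings only Eif4g3 and Eif4g2 of the 10 were higher in total RNA, the calls of Eif4g1 and Eif4b being lost (adjusted p 0.0678 to 0.289). In RPF 6 were higher (Eif4g3, Eif4a1, Eif4ebp2, Eif4e, Eif4b and Eif4g1), beside 31.1%, and 3 lower (Eif4ebp1, Eif4e2 and Eif4a2), beside 28.7%. Translational efficiency (TE), the change in RPF beyond that in total RNA, was higher for Eif4a1, beside 0.57% of all genes, and lower for none of the 10, beside 0.63% of all genes (67 higher and 74 lower, or 84 and 51 with scaling by total counts). Eif4g2 alone was lower in TE at an unadjusted p under 0.05, and edgeR, DESeq2 and limma-trend called none of the 10 lower.

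Calls were made with limma at an adjusted p below 0.05. In either direction 8 of the 10 genes passed in total RNA, beside 65.4% of all genes, 9 in RPF, beside 59.8%, and 1 in TE, beside 1.2%. With the further limit of an absolute log2 fold change above 1, Eif4g3 was the 1 gene left in total RNA and in RPF, where 24.3% and 26% of all genes passed. Eif4a1 was the 1 left in TE, where 0.255% passed. The median log2 fold change of the 10 genes was 0.12 in total RNA, 0.30 in RPF and 0.21 in TE, against 0.03, 0.01 and 0.00565 over all genes. The ESC and EpiLC ranges did not overlap for 9 of the 10 genes in total RNA and 8 in RPF, as for 70.3% and 63.1% of all genes.

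**Figure D1:**
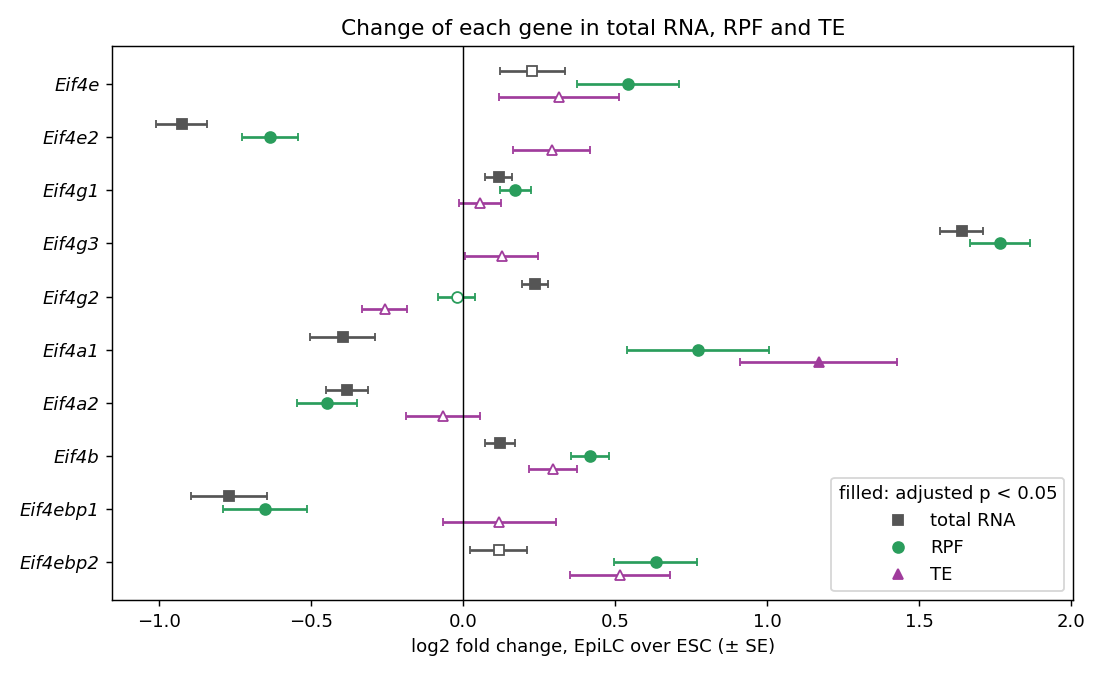
Log2 fold changes (EpiLC over ESC, ± SE, n = 3 per group) of the 10 genes in total RNA (squares), RPF (circles) and TE (triangles), with filled symbols for limma adjusted p below 0.05. Eif4g3 lies far to the right in both assays at 1.64 and 1.77, and Eif4a1 is the 1 gene with a filled triangle.

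How well the reads can tell these genes from their copies differed widely, which bears on every level given below. Only uniquely aligned reads were counted, and genes with processed pseudogenes share long identical stretches with them. Windows were taken from 1 Gencode M21 coding sequence per gene, without its first 45 nt. This is not exactly the counted sequence (for Eif4e2 777 nt against 931 counted bases), and counted bases outside it were not checked. For windows of 29 nt, a usual footprint length, the share also found in transcripts of other genes was 99.3% for Eif4a1 (1137 of 1145 windows, in 8 other genes, among them Eif4a-ps4). The share was 78.0% for Eif4e and 43.1% for Eif4a2. It was 17.6% for Eif4ebp1 and 16.2% for Eif4b, under 2% for Eif4e2, Eif4g1 and Eif4g2, and 0 for Eif4g3 and Eif4ebp2. For windows of 45 nt, nearer to the longer total RNA reads, the share was 97.1% for Eif4a1 and 60.7% for Eif4e. Levels, ratios and TE of Eif4a1 and Eif4e are therefore uncertain. A read from such a window may not align uniquely, and reads of an expressed copy cannot be separated from it.

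**Figure D2:**
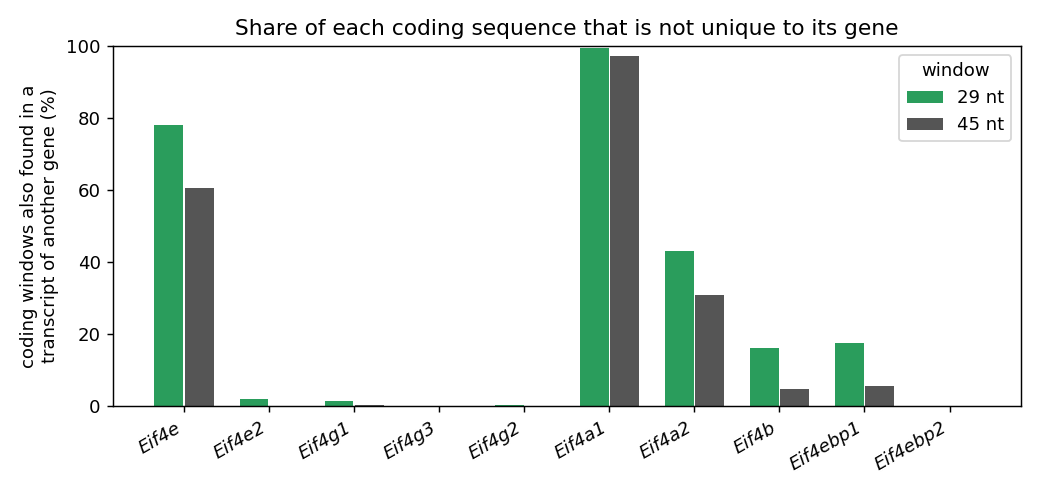
Percentage of windows of 29 nt (green) and 45 nt (grey) in the counted coding sequence of each gene that also occur in a transcript of another gene. Eif4a1 (99.3%) and Eif4e (78.0%) stand above the other 8 genes at 29 nt.

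The stretch of Eif4a1 found in the largest number of other genes, 6, is shown beside the same place in Eif4a2, since a read from it matches those genes exactly but not the paralogue. Capitals mark the 6 bases at which the paralogues differ within these 29 nt. Both stretches are coding exon sequence (GRCm38, Gencode M21), Eif4a1 at chr11:69670226-69670254, minus strand, and Eif4a2 at chr16:23109138-23109166, plus strand.
Eif4a1: aagcCcagtcTggGactggGaaAacagcT
Eif4a2: aagcTcagtcAggTactggCaaGacagcC
The coding sequences of the paralogues were 77.6% identical. The 8 windows of Eif4a1 found in no other gene lay together between bases 509 and 544 of its coding sequence.

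Of the cap-binding genes, Eif4e2 fell in both assays and Eif4e rose in RPF. Eif4e2, whose product competes for caps without recruiting eIF4G, had 183, 187 and 210.0 CPM in ESCs and 96.6, 111 and 100.3 CPM in EpiLCs in total RNA. Its RPF values were 225, 259.5 and 281 CPM in ESCs and 149.9, 161 and 181 CPM in EpiLCs. The groups did not overlap in either assay, with every EpiLC library below every ESC library. Eif4e2 fell by 0.93 ± 0.09 on the log2 scale in total RNA (SE, limma adjusted p = 7.17e-10) and by 0.64 ± 0.09 in RPF (adjusted p = 1.95e-06). The difference between these changes, the TE change, was 0.29 ± 0.13 and did not pass (adjusted p = 0.290).

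Eif4e, the cap-binding subunit of eIF4F, had 46.2, 41.1 and 43.8 CPM in ESCs and 52.2, 55.0 and 47.1 CPM in EpiLCs in total RNA. The ranges did not overlap, but the change of 0.23 ± 0.11 missed the threshold (limma adjusted p = 0.0654, 95% interval without adjustment 0.02 to 0.44). The Eif4e total RNA change passed without EpiLC total RNA replicate 3 (0.29, limma adjusted p = 0.0372) and was smaller with a GC correction (0.15, limma adjusted p = 0.237). RPF gave 24.5, 16.6 and 26.2 CPM in ESCs and 27.8, 44.1 and 35.1 CPM in EpiLCs, with all EpiLC libraries above all ESC libraries. Eif4e rose in RPF by 0.54 ± 0.17 (adjusted p = 0.00708), or 1.46-fold. That call was lost without EpiLC RPF replicate 2 (log2 fold change 0.41, adjusted p = 0.0536), the library with the fewest reads. The TE change of Eif4e was 0.32 ± 0.20 (adjusted p = 0.513).

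**Figure D3:**
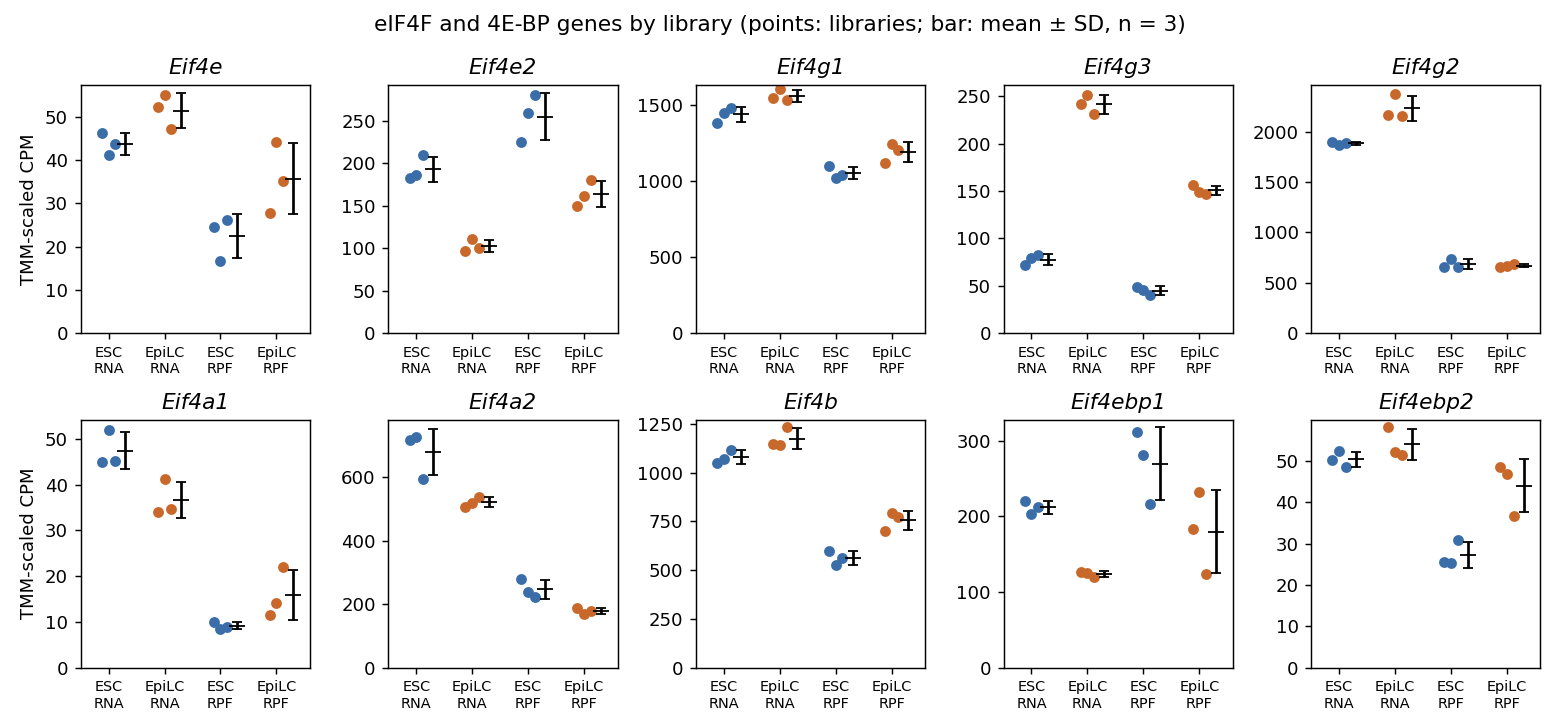
TMM-scaled CPM of each gene in each of the 12 libraries (points, blue ESC, orange EpiLC) with the mean ± SD of the 3 replicates beside them, every axis starting at 0. Eif4g3 is higher in EpiLCs in both assays, Eif4e2 is lower in both, and the 3 EpiLC RPF libraries of Eif4a1 spread from 11.6 to 22.0 CPM.

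Among the scaffolds, Eif4g3, a minor relative of Eif4g1 that also binds eIF4E and eIF4A, changed most. It had 71.4, 79.4 and 81.9 CPM in ESCs and 242, 251 and 231 CPM in EpiLCs in total RNA. The RPF libraries held 49.0, 45.7 and 40 CPM in ESCs and 156, 149 and 147 CPM in EpiLCs. The groups were far apart in both assays. Eif4g3 rose 3.12-fold in total RNA (log2 fold change 1.64 ± 0.07, SE, n = 3 per group, limma adjusted p = 4.11e-16) and 3.40-fold in RPF (1.77 ± 0.10, adjusted p = 7.99e-14). Its TE change was 0.13 ± 0.12 (adjusted p = 0.689, 95% interval -0.11 to 0.36), so the RPF change followed the RNA change to within that interval. The Eif4g3 calls in total RNA and RPF held in every other setting and without each library in turn.

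Eif4g1, the main eIF4F scaffold, had 1382, 1450.5 and 1483 CPM in ESCs and 1546, 1603 and 1534 CPM in EpiLCs in total RNA. In RPF it had 1097, 1021 and 1037 CPM in ESCs and 1121, 1247 and 1204 CPM in EpiLCs. The groups sat side by side without overlap. The changes were 0.12 ± 0.04 in total RNA (limma adjusted p = 0.0212) and 0.17 ± 0.05 in RPF (adjusted p = 0.00631). The total RNA call was lost without any 1 of 7 libraries (the 6 RPF libraries and ESC total RNA replicate 1, adjusted p 0.0868 to 0.145), and the RPF call without ESC RPF replicate 2 or 3 or EpiLC RPF replicate 2 or 3 (adjusted p 0.0608 to 0.0940, log2 fold change down to 0.11 without ESC RPF replicate 2). The TE change was 0.06 ± 0.07 (adjusted p = 0.773).

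Eif4g2 encodes DAP5, a scaffold that works without eIF4E. It had 1896, 1864 and 1891 CPM in ESCs and 2167, 2377 and 2153 CPM in EpiLCs in total RNA. Its RPF values were 657, 738 and 657 CPM in ESCs and 656, 666 and 682 CPM in EpiLCs. In total RNA every EpiLC library was above every ESC library, whereas in RPF the ranges overlapped. Eif4g2 rose in total RNA by 0.24 ± 0.04 (limma adjusted p = 2.75e-05), while its RPF change was -0.02 ± 0.06 (adjusted p = 0.774, 95% interval -0.14 to 0.10). The TE change of -0.26 ± 0.07 missed the threshold (adjusted p = 0.0788) and passed with a replicate block (-0.26, limma adjusted p = 0.0454). With a GC correction the Eif4g2 total RNA change (0.15, limma adjusted p = 0.00204) and the Eif4g2 TE change (-0.14, limma adjusted p = 0.380) were both smaller.

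The codons of the eIF4E-binding motif are printed for the 4 genes that hold it, since scaffolds and 4E-BPs compete for eIF4E through it. Coding sequences were searched for codons of tyrosine, any 4 residues, leucine and a hydrophobic residue. A single transcript per gene was read in frame, and the closer form (tyrosine, aspartate, any pair of residues, phenylalanine, leucine, then leucine or methionine) was found once each in Eif4g1, Eif4g3, Eif4ebp1 and Eif4ebp2. The wider form occurred once more in Eif4g1, and no match was found in Eif4g2, Eif4e, Eif4e2, Eif4a1, Eif4a2 or Eif4b. Capitals mark the codons of the 7 motif residues within 30 nt of coding exon (GRCm38, Gencode M21).
Eif4g1: cgtTATGACAGAGAATTCCTGCTGggcttt
Eif4g3: cagTATGACCGGGAGTTCCTACTGgacatc
Eif4ebp1: atcTATGACCGGAAATTTCTGATGgagtgt
Eif4ebp2: attTATGACCGAAAGTTTCTGTTGgaccgt
The stretches lie at chr16:20681218-20681247, plus strand in Eif4g1, at chr4:138156647-138156676, plus strand in Eif4g3, at chr8:27273334-27273363, plus strand in Eif4ebp1, and at chr10:61435063-61435092, minus strand in Eif4ebp2. Every gene with the motif had at most 17.6% of its 29 nt windows in another gene, so its counts are better separated from copies than those of Eif4e itself.

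The helicase genes gave the 1 TE call. Eif4a1, usually the more abundant eIF4A, had 44.98, 52.0 and 45.2 CPM in ESCs and 34.1, 41.2 and 34.7 CPM in EpiLCs in total RNA. RPF gave 9.999, 8.51 and 8.99 CPM in ESCs and 11.6, 14.1 and 22.0 CPM in EpiLCs, from only 37 to 117 reads per EpiLC library. The groups did not overlap, EpiLCs being lower in total RNA and higher in RPF. Eif4a1 fell in total RNA by 0.40 ± 0.11 on the log2 scale (limma adjusted p = 0.00239, or 0.0897 with limma-trend) and rose in RPF by 0.77 ± 0.23 (adjusted p = 0.00618). TE was 2.25-fold higher in EpiLCs (log2 fold change 1.17 ± 0.26, SE, n = 3 per group, limma adjusted p = 0.0237).

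This Eif4a1 result in RPF and TE rested on 1 library. Few windows of the gene were unique. Without EpiLC RPF replicate 3 the RPF change was 0.41 (adjusted p = 0.176) and the TE change 0.83 (adjusted p = 0.160), so neither passed. The share of windows found elsewhere, given above, was 99.3% at the footprint length against 97.1% at 45 nt, and its part in the TE value was not tested.

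Eif4a2, the paralogous helicase, had 716, 724 and 594 CPM in ESCs and 506, 518 and 536 CPM in EpiLCs in total RNA. The RPF libraries held 279.6, 239 and 221 CPM in ESCs and 187, 170.0 and 178 CPM in EpiLCs. All EpiLC libraries were below all ESC libraries in both assays. Eif4a2 fell by 0.38 ± 0.07 in total RNA (limma adjusted p = 2.85e-05) and by 0.45 ± 0.10 in RPF (adjusted p = 0.000396), with a TE change of -0.07 ± 0.12 (adjusted p = 0.862).

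Eif4b, which stimulates eIF4A, had 1049, 1070.4 and 1118 CPM in ESCs and 1149, 1140.1 and 1236 CPM in EpiLCs in total RNA. In RPF it had 597, 525 and 561 CPM in ESCs and 701, 794 and 771 CPM in EpiLCs. EpiLC libraries were above ESC libraries throughout. Eif4b rose in RPF by 0.42 ± 0.06 (limma adjusted p = 2.65e-06), or 1.34-fold. Its total RNA change was 0.12 ± 0.05 (adjusted p = 0.0320), a call lost without any 1 of 9 libraries (all but ESC total RNA replicate 3 and EpiLC total RNA replicates 1 and 2, adjusted p 0.0875 to 0.137). The TE change of 0.30 ± 0.08 missed the threshold (adjusted p = 0.0633). It passed with DESeq2, with scaling by total counts, with a filter of at least 10 counts in every library and with a replicate block, and without ESC RPF replicate 1 or EpiLC RPF replicate 1.

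The 4E-BP genes moved in opposite directions in RPF. Eif4ebp1 had 219.9, 203 and 213 CPM in ESCs and 127, 125 and 120.0 CPM in EpiLCs in total RNA. Its RPF values were 311, 281 and 217 CPM in ESCs and 184, 233 and 124 CPM in EpiLCs. Total RNA separated the groups cleanly, but in RPF EpiLC replicate 2 exceeded ESC replicate 3. Eif4ebp1 fell by 0.77 ± 0.12 on the log2 scale in total RNA (limma adjusted p = 7.09e-06), or 1.71-fold, and by 0.65 ± 0.14 in RPF (adjusted p = 0.000249). Without EpiLC RPF replicate 3 the RPF log2 fold change was -0.41 (adjusted p = 0.00452). The TE change was 0.12 ± 0.19 (adjusted p = 0.828).

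Eif4ebp2, the second 4E-BP, had 50.1, 52.3 and 48.6 CPM in ESCs and 58.2, 52.2 and 51.4 CPM in EpiLCs in total RNA. RPF gave 25.5, 25.3 and 30.8 CPM in ESCs and 48.5, 46.8 and 36.6 CPM in EpiLCs. The groups overlapped in total RNA and not in RPF, where EpiLCs were higher. Eif4ebp2 rose in RPF by 0.63 ± 0.14 (limma adjusted p = 0.000289), or 1.55-fold. Its total RNA change was 0.12 ± 0.09 (adjusted p = 0.275, 95% interval -0.06 to 0.30) and its TE change 0.52 ± 0.16 (adjusted p = 0.124). Passing in RPF and not in total RNA does not show that the changes differ, which is what the TE test addresses.

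Levels per kilobase rest on uniquely aligned reads alone, which may leave out most of the Eif4a1 and Eif4e sequence. By these, the scaffold Eif4g2 had the highest level of the 10 RNAs in both cell types. Eif4g2 was at 704 ± 6.35 RPKM in ESCs and 834 ± 46.8 RPKM in EpiLCs (mean ± SD, n = 3). In ESC total RNA Eif4ebp1 (685 ± 27.9 RPKM) came next and its range overlapped that of Eif4g2. Eif4b (603 RPKM) and Eif4a2 (569 RPKM) followed with overlapping ranges, then Eif4g1 (302), Eif4e2 (208), Eif4ebp2 (158), Eif4e (69.6), Eif4a1 (40.3) and Eif4g3 (14.2 RPKM), each apart from its neighbours. In EpiLC total RNA no neighbours overlapped, and the order became Eif4g2, Eif4b (656), Eif4a2 (436), Eif4ebp1 (401), Eif4g1 (328), Eif4ebp2 (169.7), Eif4e2 (110.2), Eif4e (81.9), Eif4g3 (44.2) and Eif4a1 (31.2 RPKM). Eif4ebp1 thus went from the second place to the fourth, and Eif4ebp2 passed Eif4e2.

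In RPF Eif4ebp1 held the first place in both cell types, at 872 ± 156 RPKM in ESCs and 582 ± 177 RPKM in EpiLCs, the latter overlapping Eif4b (422 ± 27.3 RPKM). In ESC RPF Eif4b (313), Eif4e2 (274) and Eif4g2 (256 RPKM) overlapped as neighbours, as did Eif4g1 (221) with Eif4a2 (207), and Eif4g3 (8.23) with Eif4a1 (7.79 RPKM). Eif4ebp2 (85.6) and Eif4e (35.7 RPKM) stood between these. In EpiLC RPF the overlapping neighbours were also Eif4g1 (250.1) with Eif4g2 (249.7), and Eif4a2 (149.8) with Eif4ebp2 (138 RPKM). Eif4e2 (176), Eif4e (56.8), Eif4g3 (27.6) and Eif4a1 (13.5 RPKM) were separate from their neighbours.

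TE as a level, the log2 ratio of RPF to total RNA CPM in same-numbered libraries, was below the median of all tested genes for 8 of the 10 genes in both cell types. The exceptions were Eif4e2 (0.40 ± 0.09 in ESCs and 0.67 ± 0.16 in EpiLCs, mean ± SD, n = 3) and Eif4ebp1 (0.33 ± 0.27 and 0.49 ± 0.43). Eif4e2 stood at the 72.3 and 82.0 percentile and Eif4ebp1 at the 69.1 and 74.6 percentile of 11750 genes. Among the scaffolds, Eif4g2 was low, with -1.53, -1.34 and -1.52 in the 3 ESC pairs and -1.72, -1.83 and -1.66 in the 3 EpiLC pairs, at the 5.15 and 3.78 percentile. Eif4g1 (-0.45 ± 0.10 and -0.39 ± 0.06) and Eif4g3 (-0.78 ± 0.24 and -0.68 ± 0.06) were nearer to the median. Eif4a2 stood at the 5.21 and 5.71 percentile and Eif4a1 at the 0.860 and 9.78 percentile, both with many windows shared with copies. Eif4b moved from the 13.7 to the 24.3 percentile and Eif4ebp2 from the 15.5 to the 36.9 percentile, as values whose TE change did not pass. Total RNA and RPF reads differ in length, and the effect of that on TE levels was not tested. No source used here says that the library numbers mark which libraries match. Values per pair and their SD depend on this matching, while the means do not.

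Ratios between related genes within a library, taken per kilobase, need no scaling between libraries. In 11 of the 12 comparisons (6 ratios in each assay) ESC and EpiLC values did not overlap. The share for ratios of other genes was not computed. Of all single genes 70.3% did not overlap in total RNA and 63.1% in RPF. Several genes enter more than 1 ratio, so the 12 comparisons are not independent. With 3 libraries against 3 the 2-sided exact permutation test cannot go below p = 0.1, the value of each of these 11, and the adjusted value over all 12 was 0.109, so none passed. The ratio of Eif4g1 to Eif4g3 was 20.8 to 22.2 in ESCs and 7.31 to 7.60 in EpiLCs in total RNA, a log2 difference of -1.52. In RPF it was 25.6 to 29.7 in ESCs and 8.24 to 9.58 in EpiLCs. Eif4g3 made up 1.39% ± 0.0868 of the summed eIF4G level in ESC and 3.67% ± 0.0763 in EpiLC total RNA, and 1.70% ± 0.147 and 5.24% ± 0.325 in RPF (SD, n = 3). Eif4g3 therefore remained the minor scaffold in every library.

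Eif4g1 and Eif4g2 were more balanced in footprints than in RNA. Their ratio was 0.410 to 0.441 in ESCs and 0.379 to 0.401 in EpiLCs in total RNA and 0.778 to 0.938 in ESCs and 0.960 to 1.05 in EpiLCs in RPF. Eif4g2 accounted for 69.0% ± 0.888 and 69.1% ± 0.649 of eIF4G total RNA in ESCs and EpiLCs, and for 52.7% ± 2.38 and 47.4% ± 0.979 of RPF.

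Between the 4E-BPs, Eif4ebp1 remained the larger in every library. The ratio of Eif4ebp1 to Eif4ebp2 was 3.99 to 4.52 in ESCs and 2.25 to 2.46 in EpiLCs in total RNA and 7.23 to 12.6 in ESCs and 3.48 to 5.12 in EpiLCs in RPF, log2 differences of -0.87 and -1.30. The share of Eif4ebp1 in the summed 4E-BP level was 81.2% ± 1.09 in ESC and 70.3% ± 0.973 in EpiLC total RNA, and 90.8% ± 2.58 and 80.3% ± 3.06 in RPF. The sum of both 4E-BPs over Eif4e was 11.8 to 12.6 in ESCs and 6.49 to 7.33 in EpiLCs in total RNA and 19.1 to 37.4 in ESCs and 9.22 to 16.9 in EpiLCs in RPF. The size of the last ratio is uncertain because so much of Eif4e is not unique, and RNA ratios do not give protein ratios.

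The ratio of Eif4e to Eif4e2 was 0.309 to 0.374 in ESCs and 0.696 to 0.801 in EpiLCs in total RNA and 0.0948 to 0.161 in ESCs and 0.275 to 0.406 in EpiLCs in RPF, log2 differences of 1.15 and 1.31. The ratio of Eif4a1 to Eif4a2 overlapped in total RNA (0.0637 to 0.0770 in ESCs and 0.0656 to 0.0805 in EpiLCs, exact permutation p = 1) and was 0.0361 to 0.0411 in ESCs and 0.0629 to 0.125 in EpiLCs in RPF. Few windows of Eif4a1 are unique, as described above, and where its reads lie was not examined. The part of shared windows in the low ratio was not tested. The ratio is therefore not taken as a measure of the relative abundance of the helicases.

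**Figure D4:**
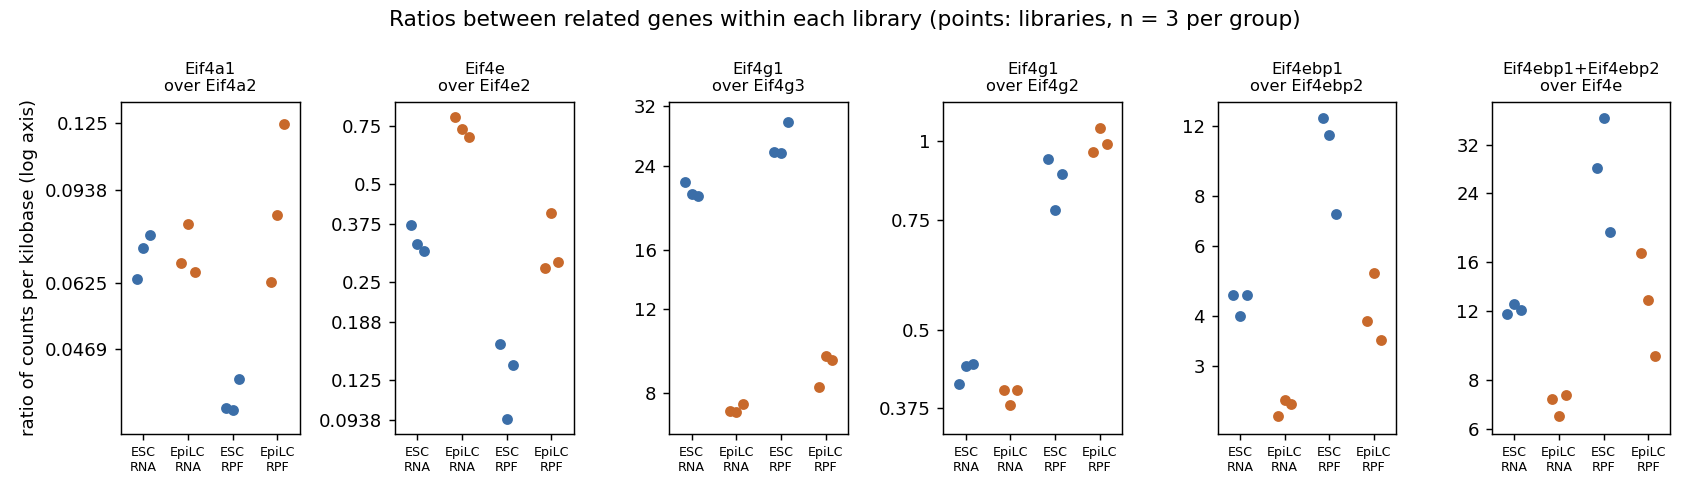
Ratios of counts per kilobase between related genes in each library (points, blue ESC, orange EpiLC), on log axes, for total RNA and RPF. The Eif4g1 to Eif4g3 ratio drops from 21.3 to 7.41 (geometric means) in total RNA, and the Eif4ebp1 to Eif4ebp2 ratio from 4.33 to 2.37.

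The 3 tested genes whose levels over the 12 libraries were most like those of Eif4e were Ern1, Rabgap1l and Rpl3. The root mean square difference of their centred log2 CPM to that of Eif4e was 0.140, 0.161 and 0.180, against a median of 0.686 over all genes. Changes are log2 fold changes ± SE. Ern1 had 0.10 ± 0.11 in total RNA and 0.42 ± 0.20 in RPF, neither passing, and Rabgap1l passed in total RNA (0.44 ± 0.12, limma adjusted p = 0.00309) and not in RPF (0.29 ± 0.21). Rpl3 had -0.00889 ± 0.10 in total RNA and rose in RPF by 0.76 ± 0.14, with a called TE change of 0.77 ± 0.17 (limma adjusted p = 0.0248).

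Other genes around the complex were read from 4 lists, whose counts stand beside 34.6% higher and 30.7% lower in total RNA and 31.1% higher and 28.7% lower in RPF over all genes. With the fold limit 24.3% of all genes passed in total RNA and 26% in RPF. In total RNA 1 of 5 relatives, 2 of 18 partners, 2 of 13 kinases or phosphatases and 0 of 12 eIF3 subunits passed. The numbers in RPF were 2, 2, 2 and 0. Of 5 tested eIF4 relatives 3 rose in total RNA and none fell, and in RPF 3 rose and 1 fell. The 1 that fell was Eif4ebp3, the third 4E-BP, at -1.12 ± 0.37 (limma adjusted p = 0.0106), with -0.62 ± 0.30 in total RNA and 76.1% of its windows found in another gene. The count that fell in RPF was 0 without EpiLC RPF replicate 3 or with at least 10 counts in every library, and 2 without ESC RPF replicate 1 or 2 or EpiLC RPF replicate 1 or with RLE factors. Eif4ebp3 alone was lower in total RNA at an unadjusted limma p under 0.05, and edgeR, DESeq2 and limma-trend called none lower. Eif4e3, a further cap-binding relative, was at 0.711 ± 0.343 CPM in ESC and 10.8 ± 1.01 CPM in EpiLC total RNA, and at 0.527 ± 0.109 and 8.23 ± 0.455 CPM in RPF (mean ± SD, n = 3). It rose by 3.99 ± 0.37 (log2 fold change ± SE, limma adjusted p = 7.77e-10) and 3.76 ± 0.48 in the respective assays, with 47.4% of its windows found in another gene. ESC libraries held only 6 to 13 reads of Eif4e3 in total RNA and 2 to 7 in RPF, so the size of its change depends on the prior count. Eif4e3 reached the filter of 3 CPM only through the EpiLC libraries, the group where it is high. It is nevertheless counted among the 3 relatives that rose in each assay. Eif4enif1, which carries eIF4E into the nucleus, rose by 0.40 ± 0.07 in total RNA and 0.32 ± 0.11 in RPF, the RPF call being lost without ESC RPF replicate 1 (0.22, limma adjusted p = 0.0990) or EpiLC RPF replicate 2 (0.24, adjusted p = 0.0782) or 3 (0.19, adjusted p = 0.170). Eif4e1b did not reach the filter. The median log2 fold change of the tested relatives was 0.24 in total RNA.

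Among 18 partners of the complex, 7 rose and 4 fell in total RNA, and 8 rose and 3 fell in RPF (median log2 fold change 0.13 and 0.09). The number lower in RPF was 5 with edgeR, DESeq2, limma-trend, RLE factors or the GC correction with the block, and 6 without EpiLC RPF replicate 2. Cyfip2, whose product belongs to the WAVE complex and whose relative Cyfip1 binds eIF4E, rose by 2.09 ± 0.08 in total RNA and 2.24 ± 0.10 in RPF. Cyfip1 itself fell in both, with log2 fold changes of -0.29 ± 0.05 and -0.28 ± 0.06. Pdcd4, an inhibitor of eIF4A, rose by 1.27 ± 0.10 and 1.40 ± 0.11. Gigyf2, the partner of eIF4E2 in repression, fell in both, with log2 fold changes of -0.49 ± 0.07 and -0.31 ± 0.08. Paip2b, an inhibitor of poly(A)-binding protein, had -0.69 ± 0.15 in total RNA (limma adjusted p = 0.000252) and -0.19 ± 0.19 in RPF, where it did not pass. Pabpc1, the poly(A)-binding protein that eIF4G binds, was the 1 partner called in TE, by 0.64 ± 0.10 (adjusted p = 0.000660). Its total RNA was 1308 ± 67.5 and 1284 ± 147 CPM and its RPF 349.6 ± 14.1 and 531 ± 14.9 CPM in ESCs and EpiLCs, with 53.3% of its windows shared.

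Of 13 kinases and phosphatases that act on the complex, 5 rose and 6 fell in total RNA, and 4 rose and 4 fell in RPF. The number higher in RPF was 2 without ESC RPF replicate 2 or EpiLC RPF replicate 3. The number lower in RPF was 6 with RLE factors or the GC correction with or without the block. Mapk3, a kinase upstream of the kinases of eIF4E, rose by 1.18 ± 0.10 in total RNA and 1.05 ± 0.11 in RPF, and Rps6kb1, a kinase of eIF4B, by 0.47 ± 0.09 and 0.59 ± 0.13. Mknk1, a kinase that phosphorylates eIF4E, fell with log2 fold changes of -1.22 ± 0.15 and -1.01 ± 0.20. Its relative Mknk2 rose in both assays, by 0.30 ± 0.11 and 0.42 ± 0.14. Rps6kb2, a relative of Rps6kb1, had -0.70 ± 0.14 in total RNA (limma adjusted p = 0.000153) and -0.46 ± 0.21 in RPF (adjusted p = 0.0653). Mlst8, a subunit of mTORC1, had -0.81 ± 0.16 in total RNA (limma adjusted p = 0.000111) and -0.36 ± 0.16 in RPF (adjusted p = 0.0570). It passed in RPF with DESeq2, limma-trend, RLE factors and the GC correction with or without the block, and without ESC RPF replicate 1 or 2 or EpiLC RPF replicate 3.

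Of 12 tested subunits of eIF3, the factor that eIF4G contacts on the small ribosomal subunit, none rose and 6 fell in total RNA, and 2 rose and 6 fell in RPF. The number higher in RPF was 1 with DESeq2, RLE factors or every gene with a count and without ESC or EpiLC RPF replicate 2 or 3, and 4 with total counts or the GC correction with the block. Eif3f alone was higher in total RNA at an unadjusted limma p under 0.05, and edgeR, DESeq2 and limma-trend called none higher. The median log2 fold changes were -0.08 and -0.15. Eif3l had -0.32 ± 0.05 in total RNA and -0.24 ± 0.06 in RPF, and Eif3d -0.32 ± 0.05 and -0.34 ± 0.06. Eif3b was called in TE at 0.29 ± 0.07 (limma adjusted p = 0.0435), with 0.05 ± 0.05 in total RNA and 0.34 ± 0.05 in RPF. This TE call was lost without any 1 of 10 libraries (all but ESC RPF replicate 3 and EpiLC total RNA replicate 2, adjusted p 0.0531 to 0.140) and under 5 other settings. Eif3j1, whose windows all occur in Eif3j2, did not reach the filter.

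**Figure D5:**
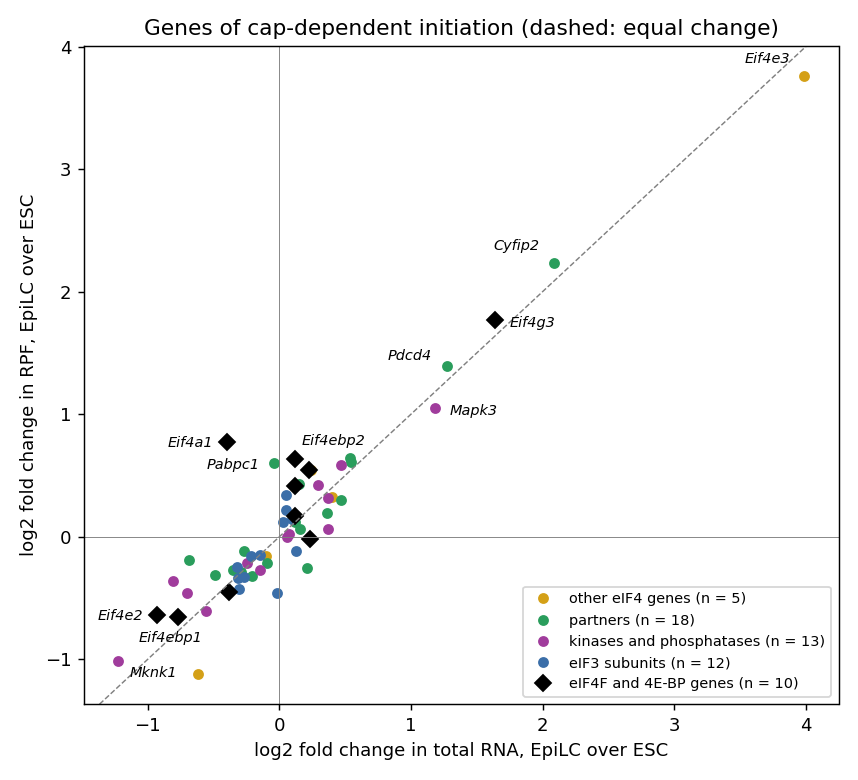
Log2 fold change in RPF against that in total RNA (EpiLC over ESC) for the 10 eIF4F and 4E-BP genes (black diamonds) and the tested genes of the 4 lists (coloured points), with a dashed line of equal change. Eif4g3 and the named risers Cyfip2, Pdcd4 and Mapk3 lie near the line, and Eif4a1 and Pabpc1 lie above it by 1.17 and 0.64.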

How the data were processed

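Ribosome profiling of mouse ESCs and EpiLCs gave 3 RPF and 3 total RNA libraries of each cell type. The deposited file holds counts of reads per gene, not normalized. The authors trimmed adapters with cutadapt 1.14, kept reads of footprint length for RPF and longer reads for total RNA, kept unique alignments from STAR 2.5.3a to mm10 with Gencode M14, and counted with featureCounts 1.5.3. The file header shows 5′ ends on the sense strand, counted over coding sequence without its first 45 nt. Duplicate handling is not given in the sources used here. Unique alignment lowers the counts of genes with near-identical copies.

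Names, GC content and coding sequences came from Gencode M21 (GRCm38), which named 22385 of 22462 genes. The 10 genes and the 4 lists were chosen with earlier results of these data known. A further gene of the kinase list is not reported here and was left out of its counts. Genes with at least 3 CPM in at least 3 libraries (11750) were fitted over all 12 libraries with voom and limma 3.58.1 on TMM factors from edgeR 4.0.16 in R 4.3.3, and p-values were adjusted by Benjamini-Hochberg. TE was the interaction of assay and cell type. Of each list, up to 2 genes with the largest called changes per direction in total RNA, and genes called in TE, were named. Cyfip1, Mknk2 and Rps6kb2 were named as relatives of such genes. For likeness to Eif4e the 3 nearest genes were taken. Ratios were compared with exact permutation tests. Windows of 29 and 45 nt were matched to Gencode M21 transcripts of other genes, on both strands. No genes of the 10 shared counted bases. The model was also run on simulated counts with known changes, the outcome of which is not given here.

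Other settings were edgeR quasi-likelihood, DESeq2 1.42.0, limma-trend (prior count 0.5), RLE factors, total counts, other filters (any count, or at least 10 counts in every library), single-assay fits, a replicate block, a GC correction and leaving out each library. Replicate numbers are shared between groups, and the study describes the total RNA as matched to the RPF, but no source used here says that the numbers mark the match. Same-group libraries differed by more than sampling noise (chi-square per degree of freedom 2.46 to 7.19). All 12 were kept. Counts of the 10 genes were lowest for Eif4a1 in EpiLC RPF, at 37 to 117 reads.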

Additional observations from a re-analysis of the deposited data

Results flagged for a closer look

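Over all genes tested 1.2% had a change from ESCs to EpiLCs that differed between RPF and total RNA by the interaction test of limma. None of the 5 eIF4 relatives or 13 kinases and phosphatases tested was among them. Those called were Eif4a1 of the 10 genes, Pabpc1 of the 18 partners and Eif3b of the 12 tested eIF3 subunits. Of these, Eif4a1 had the largest difference, 1.17 on the log2 scale, and the call was lost without EpiLC RPF replicate 3 (0.83, limma adjusted p = 0.160) and under 2 other settings. Pabpc1 had 0.64, its RPF rising while its total RNA did not pass. For Eif3b the difference was 0.29. The Eif3b call was lost with most single libraries left out, while that of Pabpc1 held in every fit run, at a size below the fold limit. Nearly all of Eif4a1 (99.3% of 29 nt windows) and 53.3% of Pabpc1 occur in other transcripts, against under 2% of Eif3b, and the part of this in the values was not tested.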

How the results depend on the processing

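Of the changes of the 10 genes, 293 of 320 values under other settings and 330 of 360 with a library left out kept their direction and their side of the threshold. Genes higher in total RNA numbered 4, and 2 (Eif4g3 and Eif4g2) with edgeR, DESeq2, limma-trend, RLE factors, every gene with a count, at least 10 counts or a single assay, and 2 to 4 with a library left out. With the fold limit 1 was higher and 0 lower in total RNA and in RPF. Genes higher in TE numbered 1, 2 with DESeq2, total counts, at least 10 counts or the replicate block (Eif4b added, adjusted p 0.0331 to 0.0437), 0 with limma-trend (Eif4a1 adjusted p = 0.0576) or every gene with a count (0.0512), and 0 to 2 with a library left out.

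The replicate block gave 1 gene lower in TE (Eif4g2, adjusted p = 0.0454) and 128 higher and 133 lower TE calls over all genes, against 67 and 74. Same-numbered ESC and EpiLC libraries did not deviate together (correlations -0.0127 to 0.0401), nor did same-numbered RPF and total RNA libraries throughout (-0.18 to 0.16), so the pairing could not be read from the numbers. The share of TE calls over all genes that were higher was 47.5%, 62.2% with total counts and 59.4% with the GC correction.

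Directions that turned were all of changes that had not passed. The Eif4g2 RPF change became 0.00714 with total counts, 0.0111 with the GC correction and 0.0109 with that and the block. The Eif4a2 TE change became 0.0794 with the GC correction and 0.0812 with that and the block, and ranged from -0.15 to 0.0279 with a library left out. The Eif4ebp1 TE change ranged from -0.0532 to 0.40 with a library left out. That of Eif3d became 0.000310 with DESeq2, 0.00789 with total counts and 0.00426 with at least 10 counts, and -0.0607 to 0.0444 with a library left out. With a library left out the TE changes of Eif4e3, Eif4enif1 and Rps6kb1 ranged from -0.56 to 0.0815, -0.17 to 0.0811 and -0.00656 to 0.18, and the Pabpc1 total RNA change from -0.10 to 0.0375. The Eif4a1 to Eif4a2 log2 ratio difference in total RNA ranged from -0.0853 to 0.0635. The cause was not tested.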
